A study of Mus musculus with 464 samples.

Results

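The mammalian enzymes that write, copy and oxidise methyl groups on cytosine are coded by a small set of genes, and 8 of them are described here in single cells made from mouse embryonic stem cells: Dnmt1, Uhrf1, Dnmt3a, Dnmt3b, Dnmt3l, Tet1, Tet2 and Tet3. They were chosen by name, and all 8 have a row among the 21973 genes of the deposited table. The table holds single cells captured on a Fluidigm C1 instrument and sequenced with full-length SMART-Seq V4 chemistry. All carry 1 label: R1 stem cells, formerly kept in 15% serum replacement with LIF at 1000 U/ml, were aggregated as embryoid bodies for 48 h in hanging drops and exposed for 4 days to retinoic acid, given in the labels as 0.5 mM. No untreated cells and no separate cultures are named, so the data are 1 sample, cells are not replicates, and no p-value is given for any difference between cells.

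Columns were kept where 2000 or more genes were above 0 and mitochondrial genes took no more than 20% of the level, which removed 6 of them. The headers split the columns into 2 numbered sets, whose meaning the labels do not state, and 55 columns of set 1 had a near-identical column in set 2 (lowest correlation within such a pair 0.95, against 0.92 at most for any other pair). Only 1 column of each pair was kept, and these distinct cells are described here. Levels are taken as TPM, a length-corrected share of each cell's RNA that keeps no read depth. The number of genes above 0 (2059 to 10256 per cell, median 6740) is therefore the nearest measure of depth. A gene is called detected at 1 TPM or more. Some zeros are missed RNA, since the housekeeping gene Tbp was listed at 0 in 39 cells.

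Cells were sorted by 3 lists of 12 marker genes each, for endoderm (such as Gata4, Sox17 and Dab2), neural progenitors (such as Pax6, Sox2 and Hes5) and neurons (such as Stmn2, Tubb3 and Dcx), where a state needed at least 6 markers at 5 TPM or more. This gave 62 endoderm cells, 60 neuron cells and progenitor cells numbering 82 in column set 1 and 47 in set 2. A further 93 cells passed for both progenitor and neuron, 41 passed for endoderm together with progenitor or neuron and are called mixed, and 18 passed for none. The median endoderm cell held 9 of 12 endoderm markers and 0 progenitor markers, the median neuron cell held 11 neuron and 3 progenitor markers, and the median progenitor cell held 9 progenitor and 3 neuron markers. The states are ranges and not types: 8 cells lay at 5 or 6 endoderm markers, 56 at 5 or 6 progenitor markers and 56 at 5 or 6 neuron markers. Median gene number was 6193.5 in endoderm, 5965 in neuron and 6702 in progenitor cells, and 8145 in mixed cells, whose possible content of more than 1 cell was not tested. Of 8 pluripotency markers, Nanog, Tdgf1, Utf1 and Esrrb were listed at 0 in all endoderm cells, while the summed level of the list had a median of 388.5 TPM there (range 0 to 5093 TPM) and 0 TPM in neuron and progenitor cells. Mesenchyme, blood and trophoblast lists had a median summed level of 0 TPM in every state.

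Cytosine methylation at CpG sites is copied at each DNA replication by Dnmt1, which Uhrf1 brings to newly made, half-methylated DNA. Dnmt3a and Dnmt3b set new methylation, helped in germ cells and early embryos by Dnmt3l, a relative with no catalytic activity of its own. Tet1, Tet2 and Tet3 oxidise methylcytosine, which is then lost by dilution at replication or cut out by base excision repair. In early mouse development Tet1 is known from pluripotent cells and Tet3 from the oocyte, the zygote and the nervous system.

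Because Dnmt1 and Uhrf1 act at replicating DNA, the 300-base windows around their annotated starts were searched on both strands for 4 words that E2F factors, regulators of S phase genes, are known to bind: TTTGGCGC, TTTCCCGC, TTTCGCGC and TTTGCCGC. Sequences are from RefSeq, build GRCm38.p6, the build that mm10 names. At least 1 word was present in 744 of 32851 windows (2.26%). Among the 8 genes, only windows of Dnmt1 and Uhrf1 held one, and each of these genes also has annotated windows without a match. Each word contains a CpG, and both matched windows hold 33 CpG, more than 91.4% of all windows do. The share among windows of like CpG content was not taken, so 2.26% is no matched rate for them. The windows with matches are shown 5′ to 3′, with the matched word, or its reverse complement, in capitals; Dnmt1 lies on the minus strand at chr9:20952574-20952873 and Uhrf1 on the plus strand at chr17:56304063-56304362.
Dnmt1: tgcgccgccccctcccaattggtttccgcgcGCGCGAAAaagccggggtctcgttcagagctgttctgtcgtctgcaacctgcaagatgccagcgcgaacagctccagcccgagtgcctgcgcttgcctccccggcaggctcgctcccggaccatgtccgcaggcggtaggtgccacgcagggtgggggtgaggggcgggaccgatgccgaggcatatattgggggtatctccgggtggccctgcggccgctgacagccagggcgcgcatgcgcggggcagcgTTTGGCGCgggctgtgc
Uhrf1: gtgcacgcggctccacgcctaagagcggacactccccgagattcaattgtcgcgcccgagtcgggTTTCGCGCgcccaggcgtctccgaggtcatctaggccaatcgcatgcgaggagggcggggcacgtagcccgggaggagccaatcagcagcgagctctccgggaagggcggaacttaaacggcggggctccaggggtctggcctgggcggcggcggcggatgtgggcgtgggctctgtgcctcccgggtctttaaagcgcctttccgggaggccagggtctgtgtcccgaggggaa
A match is a run of letters and not a measured binding site.

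For the de novo genes, windows of Dnmt3l and Dnmt3b are shown, with CpG content close to the median and high, in that order. The first annotated window of Dnmt3l, on the plus strand at chr10:78042037-78042336, has 6 CpG, and the window of Dnmt3b, on the plus strand at chr2:153649199-153649498, has 30 CpG, where the median of all windows is 7. The other windows of Dnmt3l have 4 and 3 CpG, and those of Dnmt3a, not shown, have 46, 47 and 18. CpG sites are in capitals.
Dnmt3l: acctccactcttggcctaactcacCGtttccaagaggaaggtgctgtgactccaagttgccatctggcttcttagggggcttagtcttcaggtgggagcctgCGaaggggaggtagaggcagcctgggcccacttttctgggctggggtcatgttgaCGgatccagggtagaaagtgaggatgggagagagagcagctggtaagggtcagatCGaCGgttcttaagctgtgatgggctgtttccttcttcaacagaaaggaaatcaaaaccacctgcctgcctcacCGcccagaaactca
Dnmt3b: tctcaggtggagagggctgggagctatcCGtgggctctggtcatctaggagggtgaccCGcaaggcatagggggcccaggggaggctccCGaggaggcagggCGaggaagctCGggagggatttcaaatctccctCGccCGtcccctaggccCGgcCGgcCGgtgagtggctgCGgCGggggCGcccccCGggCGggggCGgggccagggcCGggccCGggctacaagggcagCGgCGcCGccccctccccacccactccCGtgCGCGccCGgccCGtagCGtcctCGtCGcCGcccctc
Methylation itself was not measured in these cells.

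Across all cells the maintenance genes had the highest mean levels and Dnmt3l by far the lowest. Mean levels were 19.5 TPM for Uhrf1 and 16.4 TPM for Dnmt1, then 12.9 TPM for Dnmt3a, 12.2 TPM for both Tet1 and Tet3, 9.82 TPM for Tet2, 4.27 TPM for Dnmt3b and 0.589 TPM for Dnmt3l. The spread over cells was as large as the means: the SD was 27.5 TPM for Uhrf1, 16.9 TPM for Dnmt1 and 21.5 TPM for Tet1. By share of cells the order differed. Dnmt1 was detected in 79.4% of cells (exact Clopper-Pearson 95% interval 75.1 to 83.2%), Tet3 in 73.7%, Uhrf1 in 67.2% (62.4 to 71.8%), Dnmt3a in 67%, Tet1 in 50.4%, Tet2 in 42.2%, Dnmt3b in 34.2% and Dnmt3l in 2.98%. All intervals given here cover counting error only. The median cell detected 4 of the 8 genes.

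The 55 near-identical pairs were taken as 1 cell measured again, which the labels do not state, and give at most the part of the measurement error that arose after the cDNA was made. Both columns of a pair gave the same detection call in 92.7% of pairs for Dnmt3a and Tet2, the lowest share, and in 100% for Dnmt3b and Tet1. Where a gene was detected in both columns, the median absolute difference ran from 0.20 log2 units (Dnmt3b) to 0.62 (Tet1). On the log2(TPM + 1) scale, the SD within pairs was 0.41 for Uhrf1 and 0.52 for Dnmt1, against 2.49 and 2.05 between cells. The pairs were found by their likeness and hold no loss at capture, so their spread is a lower limit of the error. Over all 8 genes the SD was 0.23 to 0.80 within pairs and 0.73 to 2.49 between cells.

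**Figure D1:**
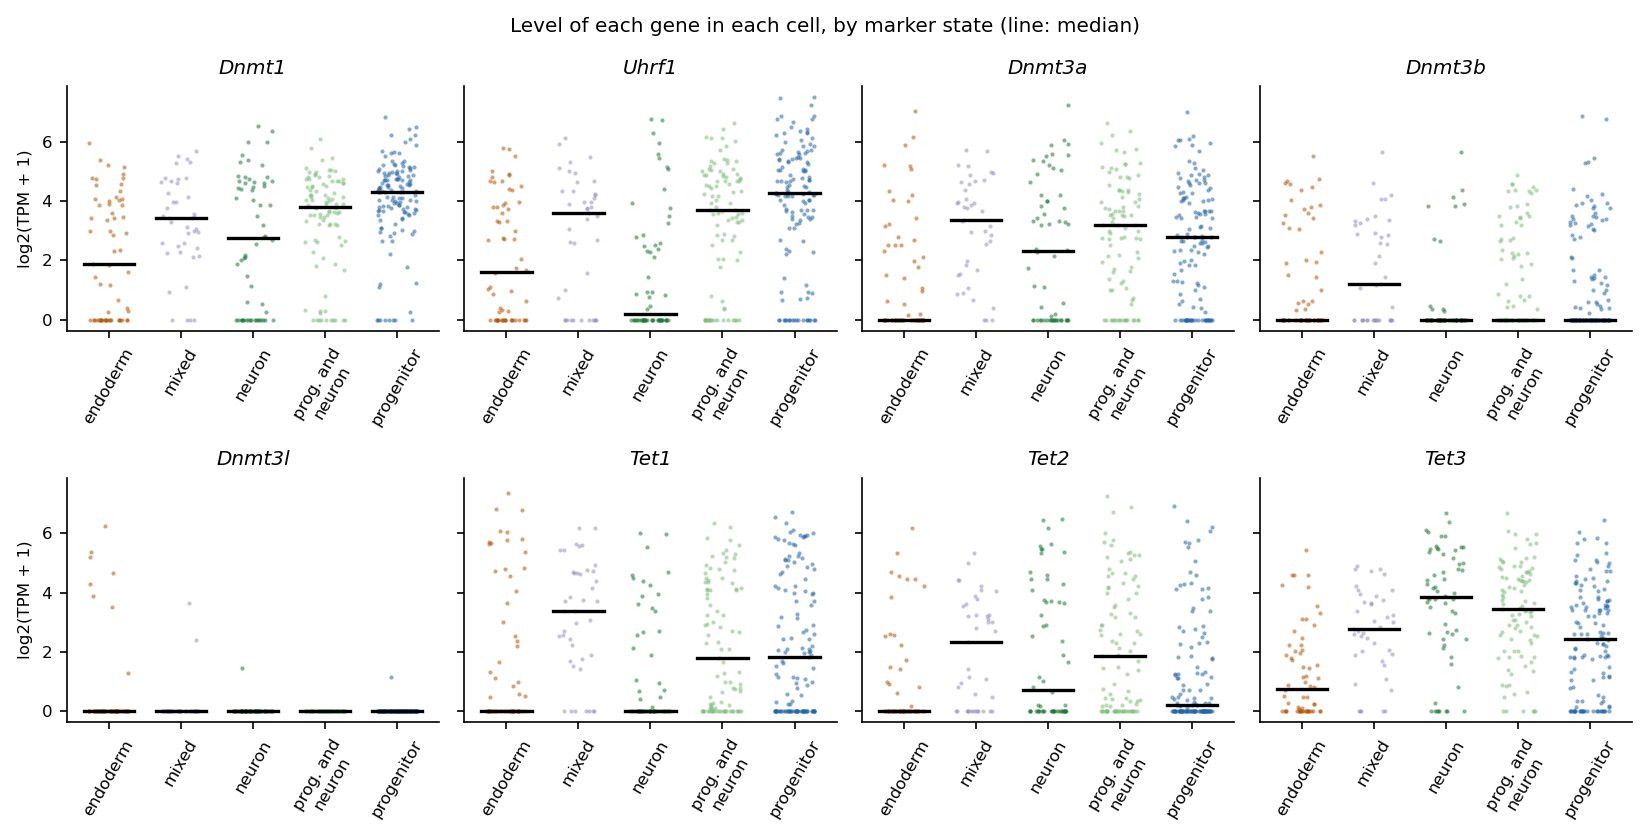
Level of each gene in each cell with a marker state, as log2(TPM + 1) on the y axis; each point is 1 cell and the black line is the median of the state. The medians of Dnmt1 and Uhrf1 lie lower in endoderm and neuron cells than in progenitor cells, and Tet3 has its highest median in neuron cells (13.5 TPM).

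The maintenance genes were lower in endoderm cells than in progenitor cells. Dnmt1 averaged 9.06 ± 12.6 TPM in 62 endoderm cells and 22.5 ± 18.8 TPM in progenitor cells (SD over cells), a log2 ratio of -1.31. Its median and highest values were 2.66 and 61.5 TPM in endoderm cells and 18.9 and 112.2 TPM in progenitor cells. For this gene, as for all 8, the lowest cell of every state was at 0, so the ranges overlap throughout. Dnmt1 was detected in 58.1% of endoderm cells (44.8 to 70.5%) and 93% of progenitor cells (87.2 to 96.8%), intervals that do not overlap. Within the column sets the log2 ratio was -1.22 in set 1 and -1.46 in set 2.

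By ratio of mean TPM the gap was wider in Uhrf1 than in Dnmt1, and by share of detecting cells it was narrower. On the log2(TPM + 0.1) scale the difference was -2.64 for Uhrf1 and -2.99 for Dnmt1. The difference between the genes was not tested. Uhrf1 averaged 9.13 ± 13.2 TPM in endoderm cells and 30.3 ± 34.9 TPM in progenitor cells, a log2 ratio of -1.73 (-1.52 in set 1 and -2.06 in set 2). The median endoderm cell had 2.07 TPM and the highest 54.3 TPM, against 18.3 and 180.2 TPM in progenitor cells. Detection was 54.8% in endoderm cells (41.7 to 67.5%) and 81.4% in progenitor cells (73.6 to 87.7%).

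In neuron cells Uhrf1 passed 2-fold and Dnmt1 did not; the difference between the genes was not tested. Uhrf1 averaged 10.4 ± 23.9 TPM in 60 neuron cells, with a median of 0.15 TPM and a highest value of 108.9 TPM, and its log2 ratio to the progenitor cells was -1.54 (-1.88 in set 1 and -1.39 in set 2). It was detected in 38.3% of neuron cells (26.1 to 51.8%), and the 5 highest neuron cells held 64% of its summed level. Dnmt1 averaged 15.1 ± 20.4 TPM in neuron cells, with a median of 5.69 TPM, and its log2 ratio of -0.57 was under 2-fold; 65% of neuron cells detected it (51.6 to 76.9%), a share below that of progenitor cells. Cells with both progenitor and neuron markers averaged 15.0 TPM for Dnmt1 and 19.05 TPM for Uhrf1, and detected them in 83.9% and 76.3% of cells. Both genes were detected together in 23 endoderm cells (37.1%), 18 neuron cells (30%) and 100 progenitor cells (77.5%). Neither was detected in 15 endoderm cells (24.2%), 16 neuron cells (26.7%) and 4 progenitor cells (3.10%).

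**Figure D2:**
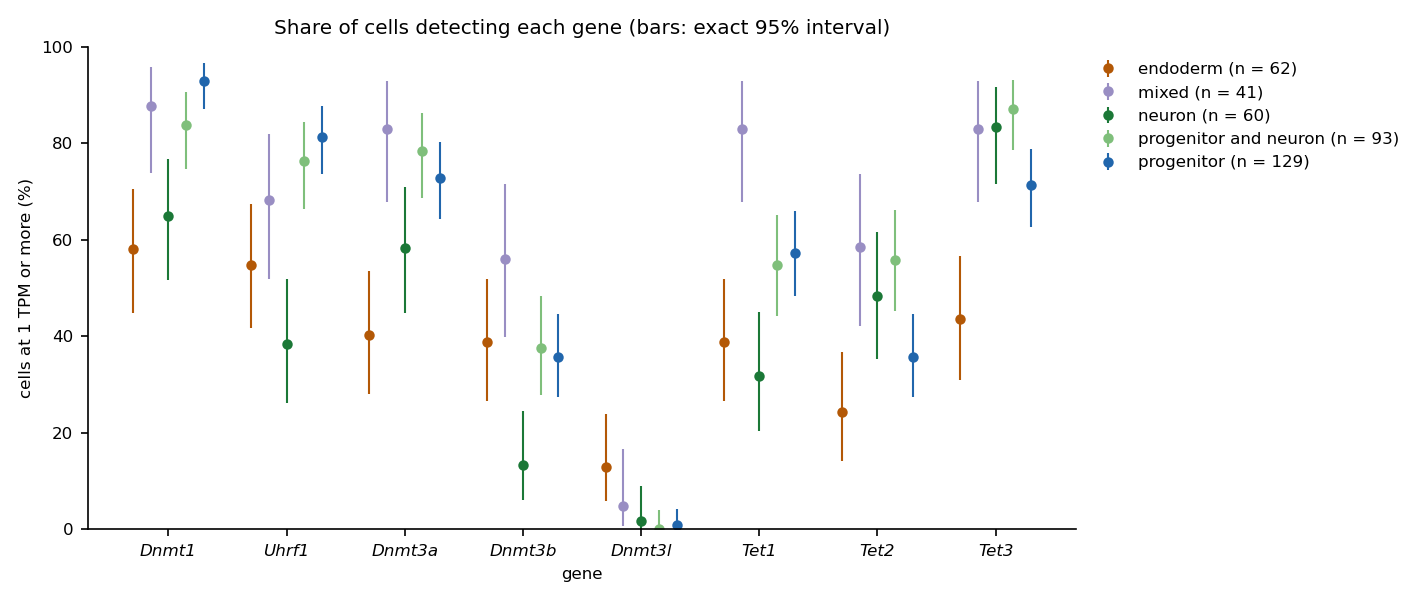
Share of cells at 1 TPM or more on the y axis (percent) for each gene and marker state; points are shares and bars are exact 95% intervals, which cover counting error only. Dnmt1 is at 58.1% in endoderm cells and 93% in progenitor cells, while Dnmt3l is above 10% in endoderm cells alone (12.9%).

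Levels of Uhrf1 were correlated with those of S phase genes across progenitor cells, and the coefficient for Dnmt1 was lower; the difference between the genes was not tested. An S phase score was taken as the mean log2(TPM + 1) of 18 replication genes, such as Mcm2 to Mcm7, Rrm2 and Cdc6, that do not include the 8 enzymes. Among progenitor cells Spearman's rho with this score was 0.62 for Uhrf1 and 0.23 for Dnmt1, and between -0.04 and 0.09 for the other 6 genes. In endoderm cells rho was 0.61 for Uhrf1 and 0.45 for Dnmt1, and in neuron cells 0.65 and 0.52. Within the 43 progenitor cells of lowest score the order was the other way, with 0.30 for Uhrf1 and 0.50 for Dnmt1. These are descriptions across cells that share a library process and TPM's fixed total. With gene number per progenitor cell, rho was 0.03 for Uhrf1 and 0.04 for Dnmt1. It was 0.27 and 0.38 in endoderm cells, and 0.05 and 0.12 in neuron cells. For the other 6 genes in progenitor cells it ran from -0.04 (Dnmt3l) to 0.30 (Tet1). The part of gene number in the correlations was not tested.

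With progenitor cells in 3 groups of 43 by S phase score, from low to high, Uhrf1 averaged 10.1, 30.6 and 50.1 TPM and was detected in 55.8%, 90.7% and 97.7% of cells. Dnmt1 averaged 19, 22.1 and 26.3 TPM in the same groups. Median gene number was 6381, 6779 and 7075 in these groups, and its part in the levels was not tested. The median S phase score was 3.74 in endoderm cells, 2.31 in neuron cells and 5.89 in progenitor cells. Against only the 43 progenitor cells with the lowest scores (median 4.31), a choice made after seeing the data, the log2 ratio of Uhrf1 was -0.15 for endoderm cells and 0.04 for neuron cells. These cells were picked by a score that goes with Uhrf1, so both ratios follow from their mean of 10.1 TPM, and endoderm and neuron cells were not matched to them. Dnmt1 stayed past 2-fold lower in endoderm cells in this and in each of the 15 other alternative settings, with log2 ratios between -2.99 and -1.02. Among these, settings that changed only the gene filter could not change the ratio. The part of cell cycle in either difference was not tested.

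**Figure D3:**
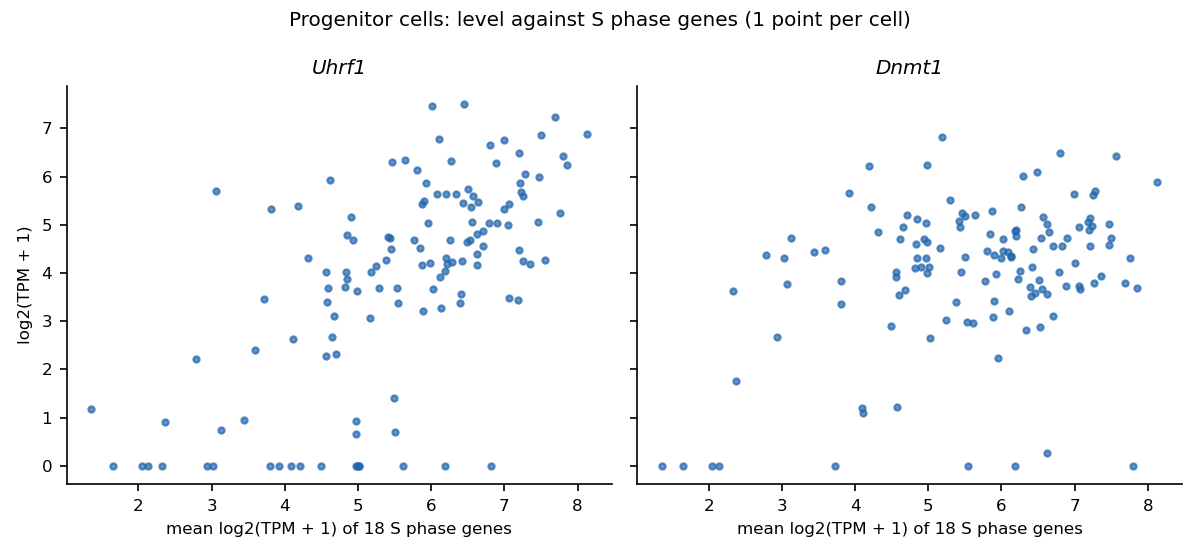
Level of Uhrf1 (left) and Dnmt1 (right) as log2(TPM + 1) on the y axis against the S phase score on the x axis, the mean log2(TPM + 1) of 18 S phase genes; each point is 1 progenitor cell. Uhrf1 climbs along the axis (rho 0.62), and Dnmt1 is spread over the same levels at most scores (rho 0.23).

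The de novo genes differed from each other in where they were detected. Dnmt3a averaged 8.08 ± 20.8 TPM in endoderm cells, 14.8 ± 25.02 TPM in neuron cells and 12.97 ± 19.01 TPM in progenitor cells, and neither log2 ratio to progenitor cells (-0.68 for endoderm, 0.19 for neuron) reached 2-fold. The share of cells did differ: 40.3% of endoderm cells (28.1 to 53.6%) and 72.9% of progenitor cells (64.3 to 80.3%) detected Dnmt3a. Its median was 0 TPM in endoderm, 3.98 TPM in neuron and 5.92 TPM in progenitor cells. Few endoderm cells carried most of the level, with 65.9% of the sum in the highest 5 cells and 130.6 TPM in the highest.

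Dnmt3b was more than 2-fold lower in neuron cells, and under 2-fold apart between endoderm and progenitor cells. It averaged 5.01 ± 8.96 TPM in endoderm cells, 2.31 ± 7.60 TPM in neuron cells and 5.18 ± 15.2 TPM in progenitor cells, with a median of 0 TPM in all 3 states. Detection was 38.7% in endoderm cells (26.6 to 51.9%), 13.3% in neuron cells (5.94 to 24.6%) and 35.7% in progenitor cells (27.4 to 44.6%). The log2 ratio was -0.05 for endoderm cells and -1.16 for neuron cells over progenitor cells. In neuron cells it was -3.11 in set 1 and -0.82 in set 2, so 2-fold was passed in set 1 only. Few cells carried the level: the highest 5 held 81.6% of the Dnmt3b sum in neuron cells and 51.2% in progenitor cells. The highest progenitor cell stood at 115.2 TPM. Both Dnmt3a and Dnmt3b were detected in 10 endoderm cells (16.1%), 7 neuron cells (11.7%) and 35 progenitor cells (27.1%).

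Dnmt3l was detected in 12 cells (2.98%), and 8 of these were endoderm cells. In these 8 it stood at 73.99, 40.7, 35.8, 23.98, 18.7, 13.6, 10.5 and 1.47 TPM. Of the other 4 cells, 2 were mixed, 1 was a neuron cell at 1.75 TPM and 1 was a progenitor cell at 1.22 TPM. The share was 12.9% of endoderm cells (5.74 to 23.9%), 1.67% of neuron cells and 0.775% of progenitor cells (0.0196 to 4.24%), and 0 of 93 cells with progenitor and neuron markers had it, which by counting alone allows a share of up to 3.23% of cells with a reading and sets no limit on cells whose RNA was missed. Of the 12 cells, 10 were in column set 1. The column pairs disagreed more often than they agreed on a positive call: 1 pair detected Dnmt3l in both columns and 3 in only 1. Dnmt3a was at 0 in 6 of the 8 endoderm cells with Dnmt3l. Over all endoderm cells Dnmt3a was above 0 in 48.4%, and a link between the genes was not tested.

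**Figure D4:**
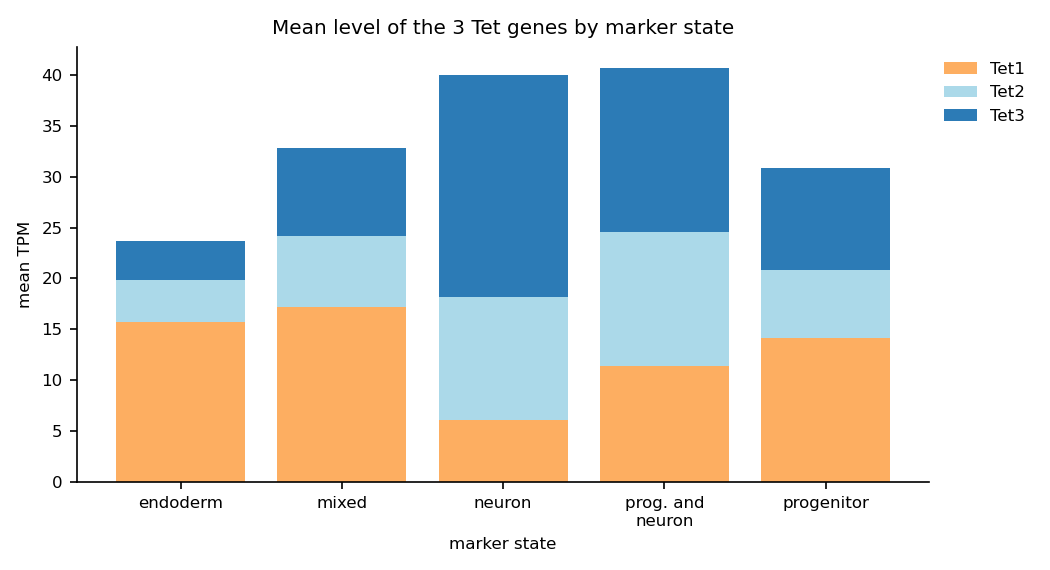
Mean level of Tet1, Tet2 and Tet3 in TPM on the y axis, stacked for each of 5 marker states; a bar's full height is the summed mean level. Tet1 makes up 66.2% of the bar in endoderm cells and 15.1% in neuron cells, and Tet3 16.2% and 54.6%; in endoderm cells 53.1% of the Tet1 level lies in 5 cells.

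The makeup of the summed Tet level differed between states. By mean level Tet1 held the largest part of the sum in endoderm cells and Tet3 in neuron cells. The endoderm part of Tet1 came from few cells: 5 held 53.1% of its level, its median was 0 TPM, and fewer endoderm cells detected Tet1 (38.7%) than Tet3 (43.5%). Summed over the 3 genes, the mean was 23.7 TPM in endoderm cells, 40.05 TPM in neuron cells and 30.9 TPM in progenitor cells, with medians of 6.59, 28.9 and 21.8 TPM. Tet1 made up 66.2% of it in endoderm, 15.1% in neuron and 45.8% in progenitor cells. Tet3 made up 16.2%, 54.6% and 32.5% in these states, and Tet2 17.6%, 30.3% and 21.7%.

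Tet3 was higher in neuron cells and lower in endoderm cells than in progenitor cells. It averaged 3.84 TPM in endoderm, 21.9 TPM in neuron and 10.03 TPM in progenitor cells, with medians of 0.69, 13.5 and 4.44 TPM and highest cells at 42.4, 101.7 and 85.3 TPM. The log2 ratio was -1.38 for endoderm cells (-0.93 in set 1 and -2.0 in set 2) and 1.12 for neuron cells (1.75 in set 1 and 0.38 in set 2). Of endoderm cells 43.5% detected Tet3 (30.99 to 56.7%), of neuron cells 83.3% (71.5 to 91.7%) and of progenitor cells 71.3% (62.7 to 78.9%). The neuron and progenitor intervals overlap, and the neuron difference did not reach 2-fold within set 2.

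Tet1 was lower in neuron cells, while its endoderm level rested on few cells. It averaged 15.7 ± 32.1 TPM in endoderm cells, 6.03 ± 13.5 TPM in neuron cells and 14.1 ± 22.4 TPM in progenitor cells. In endoderm cells its median was 0 TPM, its highest value 162.3 TPM, and 53.1% of the sum lay in 5 cells. The log2 ratio to progenitor cells was 0.15 for endoderm cells and -1.23 for neuron cells. For endoderm cells it was -0.56 in set 1 and 1.29 in set 2, so the sets point in opposite directions; for neuron cells it was -1.02 and -1.16. Detection was 38.7% in endoderm cells (26.6 to 51.9%), 31.7% in neuron cells (20.3 to 44.96%) and 57.4% in progenitor cells (48.4 to 66.03%).

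Over all distinct cells Tet2 did not reach 2-fold in either comparison. Its mean was 4.17 TPM in endoderm, 12.1 TPM in neuron and 6.70 TPM in progenitor cells, with log2 ratios of -0.68 and 0.86 to progenitor cells. For neuron cells it was 1.04 in set 1 and 0.54 in set 2, and it passed 2-fold in 4 of 16 alternative settings, by most (1.59) within the middle range of cells by gene number; for endoderm cells it did so in 1. It was detected in 24.2% of endoderm cells (14.2 to 36.7%), 48.3% of neuron cells (35.2 to 61.6%) and 35.7% of progenitor cells (27.4 to 44.6%), and neither interval parts from that of progenitor cells. All 3 Tet genes were detected together in 1 endoderm cell (1.61%), 11 neuron cells (18.3%) and 24 progenitor cells (18.6%). None was detected in 15 endoderm cells (24.2%), 5 neuron cells (8.33%) and 13 progenitor cells (10.1%).

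The enzymes past 2-fold are read against the share of all genes past it. Among 13582 genes detected in at least 10 cells, 20.8% were at least 2-fold higher and 27.7% at least 2-fold lower in endoderm than in progenitor cells; 1 of the 8 enzymes was higher (Dnmt3l) and 3 were lower (Uhrf1, Tet3 and Dnmt1). In neuron cells 21% of genes were at least 2-fold higher and 15.8% at least 2-fold lower than in progenitor cells, and 2 enzymes were higher (Tet3 and Dnmt3l) and 3 lower (Uhrf1, Tet1 and Dnmt3b). The neuron call of Dnmt3l compares 1 cell with 1 cell, and its endoderm ratio also rests on that 1 progenitor cell. Dnmt3l met the filter of 10 cells only through endoderm cells, which were 8 of the 12 that detected it. Its higher call in endoderm cells is therefore no support for a difference. The median log2 ratio of the 8 enzymes was -0.68 in endoderm cells, against -0.25 for all tested genes, and -0.19 in neuron cells, against 0.05. For 9 housekeeping genes the median was -0.54 in endoderm cells and -0.52 in neuron cells. Both comparisons use the same progenitor cells and are not independent of each other. With cells rescaled by broadly detected genes, the all-gene medians were 0.00 and 0.22. Gene number per cell was lower in both endoderm and neuron cells than in progenitor cells, and 2 settings chose cells by gene number. Without the 5% of cells with most genes, no ratio of the 8 enzymes crossed 2-fold. That setting removed no endoderm cell and few neuron or progenitor cells. The ratios could therefore hardly change, and it is no test of gene number. Within the middle range of cells by gene number, Tet1 in neuron cells dropped under 2-fold (-0.70), Tet2 in neuron cells (1.59) and Dnmt3a in endoderm cells (-1.66) passed it, and Dnmt3b in endoderm cells stood at 0.89.

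**Figure D5:**
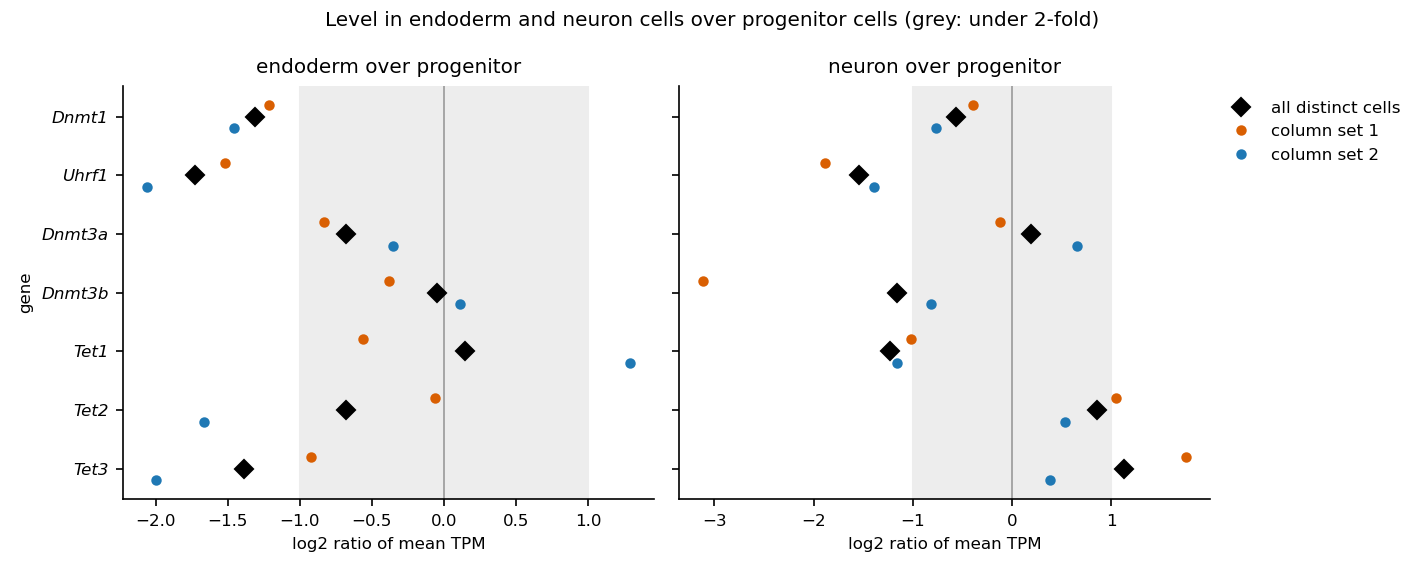
Log2 ratio of mean TPM, endoderm over progenitor (left) and neuron over progenitor (right), for 7 genes (Dnmt3l, detected in 12 cells, is left out); diamonds are all distinct cells, orange and blue points are column sets 1 and 2, and the grey band is under 2-fold. Dnmt1 and Uhrf1 lie left of the band in both sets for endoderm cells, while Tet1 lies on opposite sides of 0 there (-0.56 and 1.29).

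Counts for the pathway lists stand against the same shares of all genes. These were 20.8% higher and 27.7% lower in endoderm cells and 21% higher and 15.8% lower in neuron cells. A count near these shares is no result about the list. The lists were chosen with earlier results of these data known, so a count far from the shares is no test either. Of 11 partners of maintenance methylation tested, 4 were at least 2-fold lower in endoderm than in progenitor cells and 0 higher: Zfp57 (log2 ratio -2.07), a zinc finger protein that keeps imprints, Cdca7 (-1.72), an activator of the remodeller Hells, the replication clamp gene Pcna (-1.56) and the DNA ligase gene Lig1 (-1.08). In neuron cells 2 were lower, Cdca7 (-2.35) and Hells (-1.58), and Zfp57 was higher (2.07). Zfp57 averaged 2.75 TPM in endoderm cells, 48.8 TPM in neuron cells and 11.6 TPM in progenitor cells. Uhrf2, the relative of Uhrf1, had log2 ratios of -0.05 and -0.04. Dppa3, known in mouse to keep Uhrf1 from chromatin, was listed at 0 in all cells, which by counting alone allows a share of up to 0.744% of cells with a reading. The median ratio of the 11 genes was -0.59 in endoderm and -0.19 in neuron cells. Of the 18 S phase genes, 10 were lower and 0 higher in each comparison, and of 12 genes of G2 and M phase 11 were lower in endoderm and 10 in neuron cells.

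Some partners of the Tet enzymes were detected in few cells of 1 state and most cells of another. Cxxc4, a CXXC domain protein that binds Tet2, averaged 0.606 TPM in endoderm cells and 9.18 TPM in progenitor cells, and was detected in 3.23% and 72.9% of them. Its relative Cxxc5 averaged 33.9 TPM in neuron cells and 7.74 TPM in progenitor cells, with 81.7% and 44.2% of cells detecting it. Of 7 genes in this list, 2 were lower in endoderm cells (Cxxc4, log2 ratio -3.90, and Idh1, -1.23, which makes the Tet cosubstrate), and 1 was higher in neuron cells (Cxxc5, 2.13). Among 10 genes for removal of oxidised cytosine, 2 were higher and 4 lower in endoderm cells, and 1 was higher and 1 lower in neuron cells. Gadd45b, a stress response gene tied to demethylation, averaged 36.8 TPM in endoderm cells and 1.63 TPM in progenitor cells, and was detected in 61.3% and 9.30% of them. The 4 lower genes were Mbd4 (-1.66), Xrcc1 (-1.63), Parp1 (-1.58) and the thymine DNA glycosylase gene Tdg (-1.18). In neuron cells Gadd45a was higher (1.55) and Xrcc1 lower (-1.15).

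The readers, histone mark and methyl donor lists are given by count. Of 7 readers of methylated CpG, 1 was higher (Zbtb4) and 2 lower (Zbtb33 and Mbd3) in endoderm cells, and 1 was higher and 0 lower in neuron cells. The neuron call is Zbtb4, at 0.412 TPM in neuron cells and 0.0873 TPM in progenitor cells, with log2 ratios of 6.48 in set 1 and -4.64 in set 2. None of 6 tested genes for histone marks that guide de novo methylation passed 2-fold in either comparison. Of 8 genes for methyl donor supply, 1 was higher and 3 lower in endoderm cells, and 0 higher and 2 lower in neuron cells. Mthfd1, an enzyme of folate metabolism, averaged 49.7 TPM in endoderm, 6.31 TPM in neuron and 23.2 TPM in progenitor cells.

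Among germline genes known in mouse to be silenced by promoter methylation in somatic cells, Sycp3, Asz1, Taf7l, Sycp1 and Ddx4 were at least 2-fold higher in endoderm cells in both column sets. Of 9 tested, 6 were at least 2-fold higher and 2 lower in endoderm than in progenitor cells, where 20.8% and 27.7% of all genes were, with a median log2 ratio of 1.55; in neuron cells 2 were higher and 3 lower, with a median of 0.07. Sycp3, a part of the synaptonemal complex of meiosis, averaged 122.03 TPM in endoderm cells and 1.61 TPM in progenitor cells. It was detected in 74.2% of endoderm cells (61.5 to 84.5%), 6.67% of neuron cells and 7.75% of progenitor cells (3.78 to 13.8%). Asz1, of the piRNA pathway, averaged 22.2 TPM in endoderm cells, with 18 of 62 detecting it, and was listed at 0 in all progenitor cells, which by counting alone allows a share of up to 2.33% of cells with a reading. Taf7l, a transcription factor subunit of the testis, averaged 17.9 TPM in endoderm cells (32.3% of cells) and 0.556 TPM in progenitor cells (3.88%). Mael and Tuba3a went the other way: Mael averaged 5.03 TPM in endoderm cells and 17.9 TPM in progenitor cells. Dazl, the sixth higher gene and the one at the median, was detected in 2 endoderm cells and 3 progenitor cells, with log2 ratios of 3.09 in set 1 and -5.38 in set 2. The higher calls in neuron cells were Dazl, in 1 neuron cell, and Asz1, in 2 neuron cells and no progenitor cell. The list was chosen with earlier results of these data known, so its count set against the share of all genes is no test. These genes show no methylation level, and no link to the enzymes was tested.

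The genes closest to each enzyme were sought in progenitor cells among 9117 genes detected in at least 20% of them, by Spearman's rho of TPM. Genes close to Uhrf1 included Pcna (0.56), Pcna-ps2 (0.54), a pseudogene that can share reads with Pcna, and the replication genes Cdc45 and Dtl (0.54 each), both of which are also in the S phase list. For Dnmt1 the closest were Tex9 (0.39), Atad2, Fhod3, Hist1h2ae (0.37 each) and Spc24 (0.36). The best rho was 0.32 for Dnmt3a (Ier5l), 0.38 for Dnmt3b (Mkks), 0.40 for Tet1 (Trmt112), 0.36 for Tet2 (Hist1h1c) and 0.39 for Tet3 (Trip6), values too weak to be read as a finding in such sparse data. Among the enzymes themselves no pair passed 0.27 (Dnmt3a with Tet1), and Dnmt1 with Uhrf1 reached 0.23.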

How the data were processed

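Levels are the deposited TPM of the authors' gene table; STAR, RSEM and mm10 are named in the submitters' processing notes, without versions, and of the annotation and filters nothing is stated there. Over all columns, before any were removed, the listed genes hold 54.2% to 95.1% of a full TPM total. The values hold no read depth. From these values, cells were filtered, repeat columns (Pearson r of at least 0.93) were reduced to 1, and marker states assigned in Python 3.11.15 with pandas 2.3.3 and scipy 1.17.1. The cuts of the states were set after marker levels, not enzyme levels, were seen. Ratios of mean TPM had 0.01 TPM added to both means and were called at 2-fold. This rule was tried on simulated data only for planted changes much larger than 2-fold, in genes detected in many cells. Its error for calls near 2-fold and for sparse genes was not tested. Limits for a count of 0 are 3 cells of the total, and intervals are exact at 95%. Genes named from lists are the highest and lowest 2 by ratio, plus known partners; for each enzyme the closest 5 genes were sought. Some genes these rules select are not reported here. Some list genes outside this rule were named after their values were seen. Members and lists were chosen with earlier results of these data known. Alternatives covered column set, repeats, state cuts, scaling, log scale, gene number and gene filters.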

Additional observations from a re-analysis of the deposited data

How the results depend on the processing

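Under the alternatives, 79.6% of 250 log2 ratios of single enzymes kept both sign and side of 2-fold, 19 dropped under 2-fold, 10 passed it and 22 changed sign. Settings that changed only the gene filter leave the ratio of an enzyme they keep as it was, by construction. They are no test of it, but are included in this share and in all counts of alternatives per enzyme. Of the sign changes 18 stayed under 2-fold on either side: Dnmt3b in endoderm cells (10), Dnmt3a in neuron cells (5) and Tet1 in endoderm cells (3). The other 4 were Dnmt3l in neuron cells with 7 of 12 markers (-0.46) or markers at 10 TPM (-0.57), Tet1 in endoderm cells on the log2(TPM + 0.1) scale (-1.002), and Uhrf1 in neuron cells against the progenitor cells of lowest S phase score (0.039, a setting chosen after seeing the data). The 5 enzymes past 2-fold in neuron cells became 1 in column set 2 alone with its repeat columns included (Uhrf1; in distinct cells of set 2, Uhrf1 and Tet1 passed), 2 with 7 of 12 markers, 1 with markers at 10 TPM and 3 against the low S phase progenitor cells. Past 2-fold lower in endoderm cells were Dnmt1 in 16 of 16 alternatives and Uhrf1 and Tet3 in 15 of 16 each. In neuron cells Uhrf1 was past it in 15 of 16, Tet3 in 13, and Tet1 and Dnmt3b in 11 each. Over all genes, 6599 were past 2-fold in endoderm cells (2830 higher, 3769 lower) and 3860 by mean log2(TPM + 1); rescaling by broadly detected genes gave 3395 higher and 3122 lower. In neuron cells 5005 were past 2-fold (2855 higher, 2150 lower), against 2503 by mean log2(TPM + 1) (687 higher, 1816 lower), 3284 of genes detected in 10% of cells and 7510 with no filter. The cause of these changes was not tested. Of the shares 90.7% stayed within their interval, and 22 of 24 correlations moved by no more than 0.2. The other 2, within the low S phase progenitor cells, were those of Dnmt1 (0.50, from 0.23) and Uhrf1 (0.30, from 0.62) with S phase genes. No paired analysis was possible because all cells carry 1 label. TPM without counts sets no depth limit per gene.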

Other observations

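The 18 cells that passed for no marker state had fewer genes above 0 (median 4905) than any named state. Tet1 was detected in 1 of them (5.56%) at 4.09 TPM, and the highest Tet2 level of all cells, 482.1 TPM, was in this group.

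Mixed cells, which carry endoderm together with progenitor or neuron markers, detected more of the 8 enzymes (median 5) than endoderm cells (median 3), and all 3 Tet genes in 19 of 41 (46.3%), with the highest median gene number of any state (8145). Tet1 was detected in 82.9% of mixed cells, Dnmt3a in 82.9% and Dnmt3b in 56.1%. Sycp3 was detected in 73.2% of mixed cells and averaged 49.2 TPM there. Whether these wells held more than 1 cell was not tested.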
